A study of Rattus norvegicus with 9 samples.

Results

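Interferon response genes were examined as a group of 38 genes chosen by symbol from the 32623 genes of a table of rat spinal cord transcripts. The group holds 7 transcription factors, 4 RNA and DNA sensors, 4 genes of ISG15 conjugation and ubiquitin, 2 ADP-ribosyltransferases, 4 members of the IFIT family, 3 of the oligoadenylate synthetase family, 4 large GTPases and 10 other effectors, spread over 13 chromosomes. The libraries, 3 in each of 3 groups, were made from poly(A) RNA of the cord of female Wistar rats that were 8 weeks old. Sham rats had the lamina opened without cord injury and are labelled untreated. C_Spinal rats had an injured cord and received distilled water by gavage. T_Spinal rats had an injured cord and received 3 mL of Modified Erxian Decoction (MED), a Chinese herbal mixture, by gavage every day. How and where the cord was injured, how long before sampling, and any batch are not stated in the labels. Nor do they say that each library stands for its own animal. A p-value here sets a difference between groups against the spread of libraries within groups, and that spread may be technical. Water gavage and injury differ together between Sham and C_Spinal and cannot be told apart in that comparison.

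Interferons are secreted proteins that cells release on sensing viral or misplaced nucleic acid. Type I interferons bind a receptor whose kinases, Jak1 and Tyk2, switch on a complex that holds Stat2 and Irf9 and binds the interferon-stimulated response element (ISRE) in front of antiviral genes. Interferon gamma acts on its genes through the gamma-activated site (GAS). In the cord, microglia, astrocytes and infiltrating macrophages can all mount this response.

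Total counts ran from 56995589 to 69751015 per library. FPKM gives the fragments of a gene per length of transcript and per size of the library, so levels can be compared between genes. All 38 genes had a mean of at least 1 FPKM over the 9 libraries, the minimum for testing, which 14791 genes of the table passed. Of the 38, 5 passed through their higher groups and had at least 1 group mean under 1 FPKM: Oasl, Zbp1 and Ifi44l in Sham, Ifit1bl in Sham and T_Spinal, and Ifit1 in C_Spinal. Hoxb6, Hoxc6, Hoxc8, Hoxc9 and Hoxc10, position genes of the cord, were present in all 9 libraries, while the forebrain gene Emx1 had no count in any of them. Hoxc10 ran from 9.98 to 10.9 FPKM in Sham, 3.91 to 4.98 in C_Spinal and 2.48 to 3.70 in T_Spinal. Hoxb6 was also higher in Sham than in both injured groups without overlap. Hoxc6 went the other way, at 8.50 to 9.54, 15.9 to 18.6 and 13.2 to 15.2, and Hoxc8 overlapped between all groups. A difference in sampled cord level between the groups was not tested. The libraries of a group lay close together for the 38 genes. The Sham libraries had a median coefficient of variation of 7.51% over the members, those of C_Spinal 5.53% and those of T_Spinal 4.21%, against 6.38%, 6.13% and 6.25% over all tested genes.

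Almost the whole group was higher in injured than in intact cord. The Sham libraries summed to 266 to 280.5 FPKM over the 38 genes, those of C_Spinal to 1839 to 1855, and those of T_Spinal to 1660.4 to 1705. Both injured groups stood far above Sham, and the T_Spinal libraries stood below the C_Spinal libraries. FPKM summed over all genes also differed, at 466466 to 474397 in Sham, 542736 to 544855 in C_Spinal and 511417 to 513003 in T_Spinal. Abundant members weigh most in such a sum, and Ifitm3 and Mx2 had the largest falls in FPKM between the injured groups. The part of either in the lower T_Spinal sum was not tested. In bulk tissue a change in the number of cells of a type and a change in RNA per cell cannot be told apart. In C_Spinal against Sham, 37 members rose and 1, Ifit1, fell at an edgeR adjusted p below 0.05. Over all tested genes, 38.1% rose and 37.4% fell in that contrast. At 2-fold or more 36 rose and 1 fell, against 17.9% and 15.4% of all tested genes. The median log2 fold change of the members was 2.65, against 0.02 over all tested genes. No member had overlapping groups in that contrast: in 37 members every C_Spinal library was above every Sham library (45.6% of all tested genes) and in 1 every library was below (33.9%).

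Between the injured groups the differences were smaller and ran both ways. In T_Spinal against C_Spinal, 6 members rose, 18 fell and 14 did not pass the test, against 20.7% of tested genes called higher, 17.9% called lower and 38.6% called in either direction. Only 2 rose and 2 fell by 2-fold or more, where 1.58% and 1.78% of all tested genes did so. Some of these members passed the minimum only through their higher groups. Of the 33 members with every group mean of at least 1 FPKM, 5 rose and 15 fell. By 2-fold or more, 1 of these 33 rose and 0 fell. That limit leaves out Ifit1, Ifit1bl, Oasl, Zbp1 and Ifi44l. Every T_Spinal library was above every C_Spinal library in 8 members (30.3% of all tested genes) and below in 21 (21.7%). The median log2 fold change of the members was -0.21, against -0.003 over all tested genes. With limma on FPKM rescaled to a common sum, 12 members rose and 13 fell, so the share of higher calls among the members moved from 25% to 48%, and that over all genes from 53.6% to 75.1%. This contrast and the injury contrast share the C_Spinal libraries, so their values are set side by side and not correlated.

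**Figure D1:**
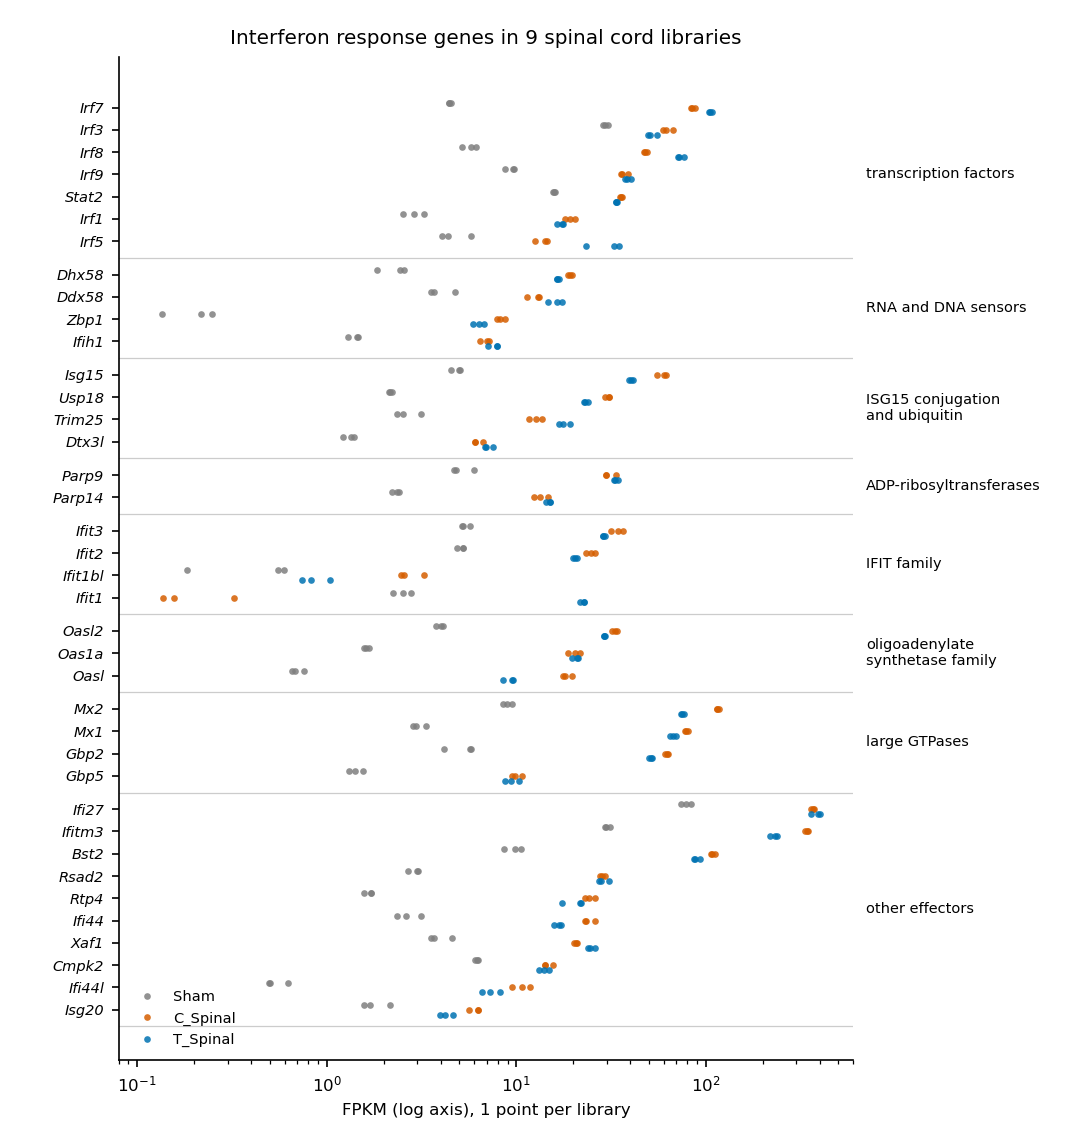
FPKM on a log axis of each of the 38 interferon response genes, 1 point per library, grouped by role and coloured by group (Sham grey, C_Spinal orange, T_Spinal blue). The Sham points lie to the left of both injured groups for every gene but Ifit1, whose 3 C_Spinal points lie to the left of Sham.

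The promoters of the members were searched for the ISRE and the GAS. RefSeq (GRCr8) gave a promoter, from 250 bases before to 50 after the start, for 29 of the 38. Ifit1, Ifit2, Mx2, Isg15, Usp18, Ddx58, Dhx58, Rtp4 and Zbp1 had no promoter in the table. The core of the ISRE, GAAANNGAA on either strand, stood in 19 of the 29 (65.5%), against 10.3% of 27457 genes with a promoter. The GAS motif TTCNNNGAA, which is its own reverse complement, stood in 8 (27.6%), against 9.39%. Both stood in 5 members, and in Bst2 an ISRE match overlapped a GAS match. The members were chosen by symbol as interferon response genes, so a high share of these motifs can follow from that choice. These are matches of letters, and binding was not measured.

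Among the transcription factors the 2 motifs fell on different genes. Irf7 had an ISRE core, starting 68 bases before the start site. Irf1, Irf8 and Irf9 had the GAS motif, while Irf3, Irf5 and Stat2 had neither in this window. The windows below run from 200 bases before the start to the base before it, 5′ to 3′ on the gene's strand. Capitals mark the ISRE core, or its reverse complement TTCNNTTTC, in Irf7 (chr1:205800024-205800223, minus strand), Ifit3 (chr1:241527126-241527325, plus strand), the second promoter of Ifit1bl (chr1:241543556-241543755, minus strand), Oas1a (chr12:41330266-41330465, plus strand) and Ifitm3 (chr1:205541759-205541958, minus strand). Capitals mark the GAS motif in Irf1 (chr10:38417735-38417934, plus strand) and Irf8 (chr19:65699084-65699283, plus strand).
Irf7: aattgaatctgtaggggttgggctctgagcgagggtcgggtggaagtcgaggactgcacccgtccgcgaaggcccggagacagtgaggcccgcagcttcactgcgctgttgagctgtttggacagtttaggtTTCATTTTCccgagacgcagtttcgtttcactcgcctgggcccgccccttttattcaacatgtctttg
Ifit3: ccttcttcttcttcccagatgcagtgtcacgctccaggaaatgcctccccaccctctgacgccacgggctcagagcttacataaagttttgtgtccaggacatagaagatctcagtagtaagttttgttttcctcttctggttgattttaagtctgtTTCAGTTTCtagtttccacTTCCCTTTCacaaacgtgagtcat
Ifit1bl: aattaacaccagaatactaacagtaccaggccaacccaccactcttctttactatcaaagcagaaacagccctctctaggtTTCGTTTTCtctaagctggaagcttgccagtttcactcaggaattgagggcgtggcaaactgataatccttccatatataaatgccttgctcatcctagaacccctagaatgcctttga
Oas1a: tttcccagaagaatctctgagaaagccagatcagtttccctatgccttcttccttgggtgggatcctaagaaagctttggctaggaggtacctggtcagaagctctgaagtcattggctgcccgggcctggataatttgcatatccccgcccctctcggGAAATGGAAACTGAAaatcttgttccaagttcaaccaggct
Ifitm3: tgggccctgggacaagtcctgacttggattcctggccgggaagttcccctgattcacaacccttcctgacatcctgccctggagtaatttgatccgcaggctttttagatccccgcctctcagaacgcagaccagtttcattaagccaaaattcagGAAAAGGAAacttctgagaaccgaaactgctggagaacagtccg
Irf1: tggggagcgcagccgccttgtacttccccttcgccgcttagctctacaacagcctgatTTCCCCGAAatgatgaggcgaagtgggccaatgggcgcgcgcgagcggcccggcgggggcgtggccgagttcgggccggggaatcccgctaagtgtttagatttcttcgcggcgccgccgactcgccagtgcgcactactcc
Irf8: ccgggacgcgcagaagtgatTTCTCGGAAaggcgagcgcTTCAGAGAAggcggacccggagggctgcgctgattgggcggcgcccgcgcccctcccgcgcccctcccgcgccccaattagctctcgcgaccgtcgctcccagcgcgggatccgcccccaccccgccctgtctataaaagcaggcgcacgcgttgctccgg
Ifit3 held 2 ISRE cores, 43 and 24 bases before its start, and Oas1a 2 that share bases, 41 and 35 before it. Irf8 held 2 GAS motifs, 180 and 161 bases before its start.

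The 7 transcription factors all rose with injury, and 3 of them were higher again in T_Spinal. Irf7, the factor that drives most type I interferon genes, measured 4.403, 4.53 and 4.42 FPKM in Sham, 87.9, 83.4 and 84.4 in C_Spinal, and 103, 108 and 105 in T_Spinal. The 3 groups were fully apart, with Sham lowest and T_Spinal highest. Its log2 fold change was 4.13 (SE 0.0385, edgeR adjusted p = 2.99e-13) with injury and 0.27 (SE 0.0329, edgeR adjusted p = 0.000145) in T_Spinal against C_Spinal. Irf8, which myeloid cells need for their development and which microglia express, measured 5.201, 5.76 and 6.17 FPKM in Sham, 47.8, 47.3 and 49.2 in C_Spinal, and 76.4, 71.7 and 72.4 in T_Spinal. Again no group overlapped another, and the changes were 2.95 (SE 0.05796, edgeR adjusted p = 2.19e-11) and 0.57 (SE 0.0529, edgeR adjusted p = 2.34e-05). Irf5, which acts behind Toll-like receptors in phagocytes, measured 4.07, 5.79 and 4.37 FPKM in Sham, 14.1, 12.5 and 14.5 in C_Spinal, and 34.9, 32.7 and 23.4 in T_Spinal. All 3 T_Spinal libraries were above the other 6, with library 3 the lowest of the 3. Irf5 rose by 1.41 (SE 0.168, adjusted p = 2.34e-05) with injury and by 1.11 (SE 0.164, adjusted p = 0.000532) in T_Spinal against C_Spinal in the edgeR fit.

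Of the other transcription factors, Irf3 and Stat2 were called lower in T_Spinal than in C_Spinal by edgeR. Irf3, a latent factor that Tbk1 switches on by phosphorylation, measured 29.5, 28.7 and 30.4 FPKM in Sham, 67.4, 59.3 and 61.9 in C_Spinal, and 55.5, 50.7 and 49.4 in T_Spinal. It had the highest Sham level of the 7 factors, and its rise with injury was the smallest of the 37, at 0.97 (SE 0.0599, edgeR adjusted p = 1.20e-07). T_Spinal was below C_Spinal without overlap, at -0.31 (SE 0.0592, edgeR adjusted p = 0.00228). Stat2 and Irf9, members of the complex that binds the ISRE, rose by 1.06 and 1.85 with injury. Stat2 ran from 15.6 to 15.97 FPKM in Sham, 35.3 to 36.1 in C_Spinal and 33.5 to 34.1 in T_Spinal, and its small difference between the injured groups, -0.12 (SE 0.0268, edgeR adjusted p = 0.00526), was called by edgeR and not by limma on log2(FPKM + 1) (-0.08, adjusted p = 0.0542). Limma on log2(FPKM + 0.1) did not call Stat2 either (adjusted p = 0.0553). With limma on FPKM rescaled to a common sum no difference was left (-4e-05, adjusted p = 0.999). Irf9 ran from 8.78 to 9.73 FPKM in Sham, 35.7 to 38.8 in C_Spinal and 37.4 to 40.5 in T_Spinal, with overlapping injured groups (0.04, SE 0.0586, edgeR adjusted p = 0.645). Irf1, which interferon gamma induces, ran from 2.51 to 3.25 FPKM in Sham, 17.99 to 20.4 in C_Spinal and 16.5 to 17.6 in T_Spinal. It rose by 2.61 with injury, and T_Spinal lay below C_Spinal without passing the test, at -0.20 (SE 0.0879, edgeR adjusted p = 0.104). Of the 19 alternatives 17 also left Irf1 uncalled, while a fit of only the 2 groups compared called it lower (edgeR adjusted p = 0.0324). Of these genes 3 overlap a neighbour on the opposite strand in the table, Irf3 with Bcl2l12 over 865 bases, Irf5 with Tnpo3 over 521 and Irf7 with Phrf1 over 65. The library kit kept strand, but whether the counting used it is not given in the sources used here, so reads of such a pair may not be told apart. In Sham, C_Spinal and T_Spinal, Bcl2l12 averaged 1.73, 5.41 and 5.38 FPKM, Tnpo3 12.3, 13.2 and 13.9, and Phrf1 10.9, 14.9 and 13.9.

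The sensors all rose with injury, and 1 of the 4 was called between the injured groups. Zbp1, which binds Z-form nucleic acid and can trigger cell death, measured 0.218, 0.135 and 0.2496 FPKM in Sham, 7.92, 8.68 and 8.24 in C_Spinal, and 5.91, 6.33 and 6.79 in T_Spinal. Its counts in Sham were 43, 26 and 40, against 1294, 1436 and 1533 in C_Spinal. In the edgeR fit this was the largest rise of the group, 5.23 (SE 0.191, edgeR adjusted p = 1.92e-09), or 37.5-fold. Over the alternatives it ran from 2.85 to 5.40, with the lowest values in limma fits, so its rank depends on the fit. Every T_Spinal library was below every C_Spinal library, yet the difference of -0.42 (SE 0.151, edgeR adjusted p = 0.05096) missed the threshold. Of the 19 alternatives 6 called it, DESeq2 among them (-0.40, adjusted p = 0.0016). Ddx58, which encodes the RNA sensor RIG-I, measured 3.55, 3.67 and 4.74 FPKM in Sham, 11.3, 12.96 and 13.2 in C_Spinal, and 14.8, 16.4 and 17.5 in T_Spinal. The injured groups did not overlap and T_Spinal was higher, at 0.34 (SE 0.115, edgeR adjusted p = 0.0405). That call was lost without any 1 of the 3 C_Spinal libraries, or without T_Spinal library 2 or 3, with adjusted p-values from 0.0604 to 0.132. Ifih1, the sensor MDA5 of long double-stranded RNA, ran from 1.29 to 1.46 FPKM in Sham, 6.47 to 7.17 in C_Spinal and 7.07 to 7.96 in T_Spinal, and Dhx58, their relative LGP2, from 1.85 to 2.56 FPKM in Sham, 18.7 to 19.7 in C_Spinal and 16.4 to 16.9 in T_Spinal. Their changes between the injured groups were 0.12 (SE 0.0795, adjusted p = 0.277) and -0.25 (SE 0.1001, adjusted p = 0.0756) in edgeR, and those with injury 2.18 for Ifih1, 2.95 for Dhx58 and 1.53 for Ddx58. The injured groups of Dhx58 did not overlap. Of the 19 alternatives 15 left Dhx58 uncalled, and the others, DESeq2 among them (adjusted p = 0.0266), called it lower in T_Spinal.

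Isg15 is a ubiquitin-like protein that is joined to other proteins, and Usp18 takes it off again and also damps the type I interferon receptor. Isg15 measured 5.01, 4.504 and 5.05 FPKM in Sham, 60.2, 55.1 and 61.6 in C_Spinal, and 39.4, 41.4 and 40.4 in T_Spinal. Usp18 measured 2.21, 2.15 and 2.12 FPKM in Sham, 30.9, 29.3 and 30.7 in C_Spinal, and 22.7, 23.00 and 23.9 in T_Spinal. Both were lowest in Sham and highest in C_Spinal, with no overlap between any groups. Isg15 rose by 3.48 (SE 0.0678, adjusted p = 2.11e-11) with injury and was lower in T_Spinal by edgeR, at -0.58 (SE 0.0605, adjusted p = 5.23e-05). Usp18 rose by 3.68 (SE 0.0597, adjusted p = 6.02e-12) and was lower in T_Spinal, at -0.42 (SE 0.0526, adjusted p = 0.000175). Trim25, a ubiquitin ligase that acts on RIG-I, went the other way between the injured groups: it measured 2.53, 2.34 and 3.15 FPKM in Sham, 11.7, 13.6 and 12.8 in C_Spinal, and 19.2, 17.7 and 16.8 in T_Spinal. All 3 T_Spinal libraries were above C_Spinal, at 0.46 (SE 0.107, edgeR adjusted p = 0.007402), after a rise of 2.12 with injury. Dtx3l, a ubiquitin ligase that pairs with Parp9, ran from 1.22 to 1.395 FPKM in Sham, 6.03 to 6.71 in C_Spinal and 6.85 to 7.58 in T_Spinal. Every T_Spinal library of Dtx3l was above every C_Spinal library without a call (0.15, SE 0.07396, edgeR adjusted p = 0.1502).

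The 2 ADP-ribosyltransferases, Parp9 and Parp14, rose by 2.46 and 2.41 with injury. Parp9 ran from 4.68 to 6.003 FPKM in Sham, 29.6 to 33.5 in C_Spinal and 32.6 to 34.4 in T_Spinal, and Parp14 from 2.203 to 2.41 FPKM in Sham, 12.4 to 14.7 in C_Spinal and 14.3 to 15.1 in T_Spinal. In both the injured groups overlapped, with differences of 0.07 (SE 0.0864, adjusted p = 0.542) and 0.10 (SE 0.06199, adjusted p = 0.224) in edgeR.

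The IFIT genes, whose proteins bind foreign RNA and hold back its translation, lie side by side on chromosome 1 in the table and did not move as a unit. The build of the table's coordinates is not given in the sources used here. Ifit2 (252894663 to 252900726, plus strand) measured 5.25, 5.22 and 4.87 FPKM in Sham, 23.5, 25.98 and 24.9 in C_Spinal, and 20.3, 19.8 and 21.02 in T_Spinal. Ifit3 (252906234 to 252911382, plus strand) measured 5.22, 5.15 and 5.67 FPKM in Sham, 31.8, 36.4 and 34.3 in C_Spinal, and 28.6, 28.5 and 29.5 in T_Spinal. Both were about 5 FPKM in all Sham libraries and highest in C_Spinal, with T_Spinal between and no overlap. Ifit2 rose by 2.15 with injury and was lower in T_Spinal, at -0.32 (SE 0.0509, edgeR adjusted p = 0.000867). Ifit3 rose by 2.55 and was also lower in T_Spinal, at -0.28 (SE 0.05802, edgeR adjusted p = 0.00395), a call that limma on FPKM rescaled to a common sum did not make (adjusted p = 0.0619).

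Ifit1bl and Ifit1 had opposite patterns. Ifit1bl (ENSRNOG00000036603, 252914684 to 252922486, minus strand) measured 0.554, 0.183 and 0.593 FPKM in Sham, 2.56, 3.27 and 2.46 in C_Spinal, and 1.04, 0.827 and 0.7396 in T_Spinal. C_Spinal was above both other groups in every library. Its log2 fold change was 2.51 (SE 0.3801, edgeR adjusted p = 0.000145) with injury and -1.70 (SE 0.366, edgeR adjusted p = 0.00476) in T_Spinal against C_Spinal, the largest fall of the 38. Ifit1 (ENSRNOG00000019050, 252944103 to 252946170, plus strand) measured 2.77, 2.25 and 2.52 FPKM in Sham, 0.326, 0.138 and 0.156 in C_Spinal, and 21.7, 22.9 and 22.9 in T_Spinal. Its counts were 417, 337 and 309 in Sham, 42, 18 and 23 in C_Spinal, and 2875, 3412 and 3391 in T_Spinal. The 3 groups were far apart, with C_Spinal lowest and T_Spinal highest. Ifit1 fell by 3.71 on the log2 scale with injury (SE 0.241, edgeR adjusted p = 1.80e-07). It rose by 6.71 (SE 0.256, edgeR adjusted p = 9.37e-08) in T_Spinal against C_Spinal, or 105-fold, the fifth highest change of the 14791 tested genes. Over the alternatives that rise ran from 4.29, with limma, to 7.18, and it was called in all 19. Against Sham the T_Spinal level was higher by 3.00 (SE 0.203, edgeR adjusted p = 3.04e-07).

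Ifit1 and Ifit1bl are close relatives, and how the authors' counting divided reads between them is uncertain. In RefSeq (GRCr8) the Ifit1bl gene encloses Ifit1, while in the deposited table the pair lies side by side. Summed over both genes, the CPM (counts scaled to the library's total) was 5.27 to 7.28 in Sham, 6.08 to 7.95 in C_Spinal and 49.0 to 51.1 in T_Spinal. The sum of the pair overlapped between Sham and C_Spinal and was higher in T_Spinal. Of the protein-coding genes beside the family, Lipa averaged 12.3, 53.8 and 70.5 FPKM in Sham, C_Spinal and T_Spinal, Ch25h 3.68, 23.7 and 14.4, and Slc16a12 1.83, 3.57 and 2.67. These neighbours were chosen for their place, after their values were seen, and none had the pattern of Ifit1. The part of read assignment in the Ifit1 result was not tested.

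**Figure D2:**
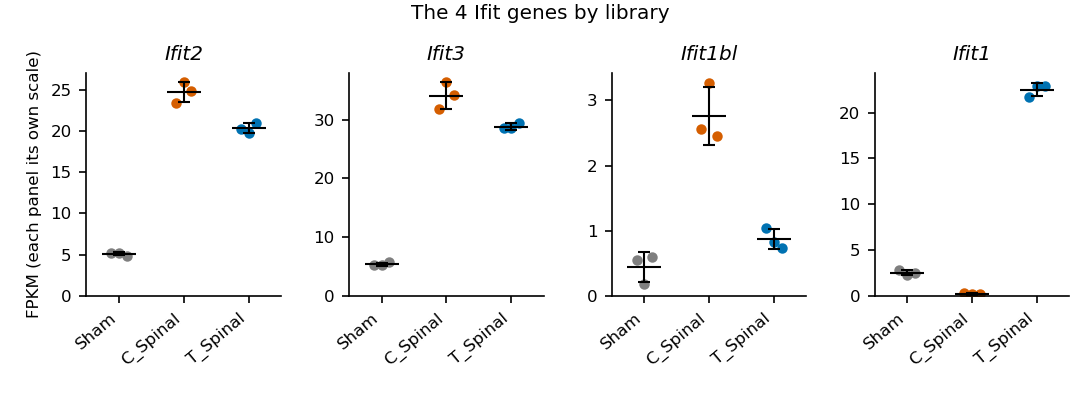
FPKM of Ifit2, Ifit3, Ifit1bl and Ifit1 by group, each panel on its own scale from 0, with 1 point per library and bars for the mean and SD (n = 3). Ifit2, Ifit3 and Ifit1bl are highest in C_Spinal, while Ifit1 is at 0.138 to 0.326 FPKM in C_Spinal and at 21.7 to 22.9 in T_Spinal.

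Oligoadenylate synthetases make a messenger that switches on RNase L, and the OAS-like genes are their relatives. Oasl measured 0.677, 0.758 and 0.652 FPKM in Sham, 19.6, 17.6 and 18.1 in C_Spinal, and 9.64, 9.45 and 8.500 in T_Spinal. It rose by 4.60 (SE 0.0928, edgeR adjusted p = 2.63e-11) with injury, 24.2-fold, and T_Spinal stood between the other groups with no overlap. The difference between the injured groups was -1.04 (SE 0.0781, edgeR adjusted p = 6.07e-06), the only fall past 2-fold beside that of Ifit1bl. Oas1a measured 1.61, 1.68 and 1.57 FPKM in Sham, 20.5, 18.7 and 21.8 in C_Spinal, and 21.2, 20.9 and 19.8 in T_Spinal. The injured groups overlapped and did not differ by the test (-0.01, SE 0.0687, edgeR adjusted p = 0.894), after a rise of 3.52 (SE 0.0778, edgeR adjusted p = 4.79e-11) with injury. The sign of the small Oas1a difference changed under other scalings, as did those of Rsad2, Gbp5 and Cmpk2 below. Oasl2 ran from 3.78 to 4.12 FPKM in Sham, 32.1 to 34.03 in C_Spinal and 28.9 to 29.3 in T_Spinal. It rose by 2.93 and was lower in T_Spinal, at -0.22 (SE 0.0426, edgeR adjusted p = 0.00269), a call that limma on FPKM rescaled to a common sum did not make (adjusted p = 0.087). The rat genome holds several close Oas1 copies, so the division of reads among them is uncertain.

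The 4 large GTPases all rose with injury. Mx1 and Mx2 are dynamin-like proteins that block virus replication. Mx1 measured 2.95, 2.85 and 3.35 FPKM in Sham, 77.7, 81.04 and 79.1 in C_Spinal, and 64.4, 67.3 and 70.04 in T_Spinal. Mx2 measured 8.91, 8.55 and 9.45 FPKM in Sham, 118, 115 and 114 in C_Spinal, and 76.8, 73.7 and 74.8 in T_Spinal. In both, Sham was far below, C_Spinal highest, and no libraries of different groups overlapped. Mx1 rose by 4.58 (SE 0.0612, edgeR adjusted p = 1.90e-12), or 23.9-fold, and Mx2 by 3.57 (SE 0.0415, edgeR adjusted p = 8.72e-13). In T_Spinal against C_Spinal Mx2 was lower, at -0.66 (SE 0.0373, edgeR adjusted p = 1.04e-06), and Mx1 was lower by less, at -0.27 (SE 0.0515, edgeR adjusted p = 0.00223). With limma on FPKM rescaled to a common sum the Mx1 call was lost (adjusted p = 0.0535). Gbp2 and Gbp5 are guanylate-binding proteins that attack the vacuoles of intracellular pathogens and are strongly induced by interferon gamma. Gbp2 measured 5.67, 5.79 and 4.18 FPKM in Sham, 63.02, 60.8 and 62.1 in C_Spinal, and 50.5, 52.2 and 51.2 in T_Spinal. Its T_Spinal libraries were below C_Spinal, at -0.31 (SE 0.0947, edgeR adjusted p = 0.0266), after a rise of 3.44. The Gbp2 call was lost without any 1 of the 6 injured libraries (edgeR adjusted p from 0.0505 to 0.072). It was also lost with limma on log2(FPKM + 0.1) (adjusted p = 0.0734) and on FPKM rescaled to a common sum (adjusted p = 0.13). Gbp5 ran from 1.31 to 1.56 FPKM in Sham, 9.55 to 10.7 in C_Spinal and 8.74 to 10.3 in T_Spinal, a rise of 2.69 with overlapping injured groups (-0.12, SE 0.0868, edgeR adjusted p = 0.319).

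Of the 10 other effectors, all rose with injury and 6 were called lower in T_Spinal than in C_Spinal by edgeR. Ifitm3, which stops viruses from fusing with cell membranes, was the second most abundant member in injured cord. It measured 29.7, 29.3 and 31.2 FPKM in Sham, 347, 334 and 342 in C_Spinal, and 233, 237 and 218 in T_Spinal. No groups overlapped, and the changes were 3.38 (SE 0.0443, edgeR adjusted p = 1.71e-12) and -0.61 (SE 0.03996, edgeR adjusted p = 2.64e-06). Bst2, called tetherin because it holds budding virus to the cell, measured 9.85, 8.62 and 10.6 FPKM in Sham, 108, 111 and 107 in C_Spinal, and 86.8, 88.2 and 93.8 in T_Spinal. T_Spinal was again between, at -0.32 (SE 0.0635, edgeR adjusted p = 0.00325) below C_Spinal after a rise of 3.37. Ifi44 and Ifi44l are neighbouring interferon-induced genes. Ifi44 measured 2.63, 3.16 and 2.35 FPKM in Sham, 23.4, 26.1 and 23.00 in C_Spinal, and 15.8, 16.8 and 17.3 in T_Spinal. Ifi44l measured 0.624, 0.501 and 0.498 FPKM in Sham, 10.7, 11.9 and 9.51 in C_Spinal, and 6.62, 7.24 and 8.18 in T_Spinal. Both fell between the injured groups without overlap, Ifi44 by 0.58 on the log2 scale (SE 0.0972, edgeR adjusted p = 0.00116) and Ifi44l by 0.58 (SE 0.132, edgeR adjusted p = 0.00685). With injury Ifi44l had risen by 4.16 (SE 0.155, edgeR adjusted p = 2.25e-09), from counts of 61, 49 and 40 in Sham, and Ifi44 by 3.03.

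Isg20, an RNA exonuclease, ran from 1.58 to 2.15 FPKM in Sham, 5.64 to 6.31 in C_Spinal and 3.98 to 4.64 in T_Spinal. It was lower in T_Spinal at -0.54 (SE 0.163, edgeR adjusted p = 0.0243), after a rise of 1.62, but the call was lost without C_Spinal library 2 or 3, or T_Spinal library 1 or 2 (adjusted p from 0.0645 to 0.0817). Rtp4, a chaperone of membrane receptors in the Golgi, measured 1.71, 1.58 and 1.72 FPKM in Sham, 24.2, 26.00 and 22.99 in C_Spinal, and 17.5, 21.9 and 21.6 in T_Spinal. The T_Spinal libraries were below C_Spinal at -0.30 (SE 0.0904, edgeR adjusted p = 0.0258), after a rise of 3.74 (SE 0.103, edgeR adjusted p = 2.31e-10). That fall was not called without C_Spinal library 1 or 2, or T_Spinal library 1, nor with limma on FPKM rescaled to a common sum (adjusted p = 0.134). The other effectors did not pass the test between the injured groups. Ifi27, the most abundant member, ran from 74.1 to 83.7 FPKM in Sham, 359.7 to 374 in C_Spinal and 360.1 to 399 in T_Spinal (0.02, SE 0.05200, edgeR adjusted p = 0.7604). Rsad2, viperin, which makes a chain-terminating nucleotide, ran from 2.67 to 3.05 FPKM in Sham, 27.7 to 29.5 in C_Spinal and 27.2 to 30.9 in T_Spinal (-0.03, SE 0.0592, edgeR adjusted p = 0.6998). Cmpk2, a mitochondrial nucleotide kinase, ran from 6.03 to 6.29 FPKM in Sham, 14.2 to 15.6 in C_Spinal and 13.2 to 14.8 in T_Spinal (-0.11, SE 0.0579, edgeR adjusted p = 0.168). Xaf1, a partner of the apoptosis inhibitor XIAP, ran from 3.54 to 4.58 FPKM in Sham, 20.1 to 20.9 in C_Spinal and 23.8 to 25.96 in T_Spinal. Its T_Spinal libraries were above C_Spinal, without a call (0.24, SE 0.0993, edgeR adjusted p = 0.08896). Of the 19 alternatives 6 called Xaf1 higher, DESeq2 among them (adjusted p = 0.0357). Their rises with injury were 2.10 for Ifi27, 3.17 for Rsad2, 1.13 for Cmpk2 and 2.26 for Xaf1.

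**Figure D3:**
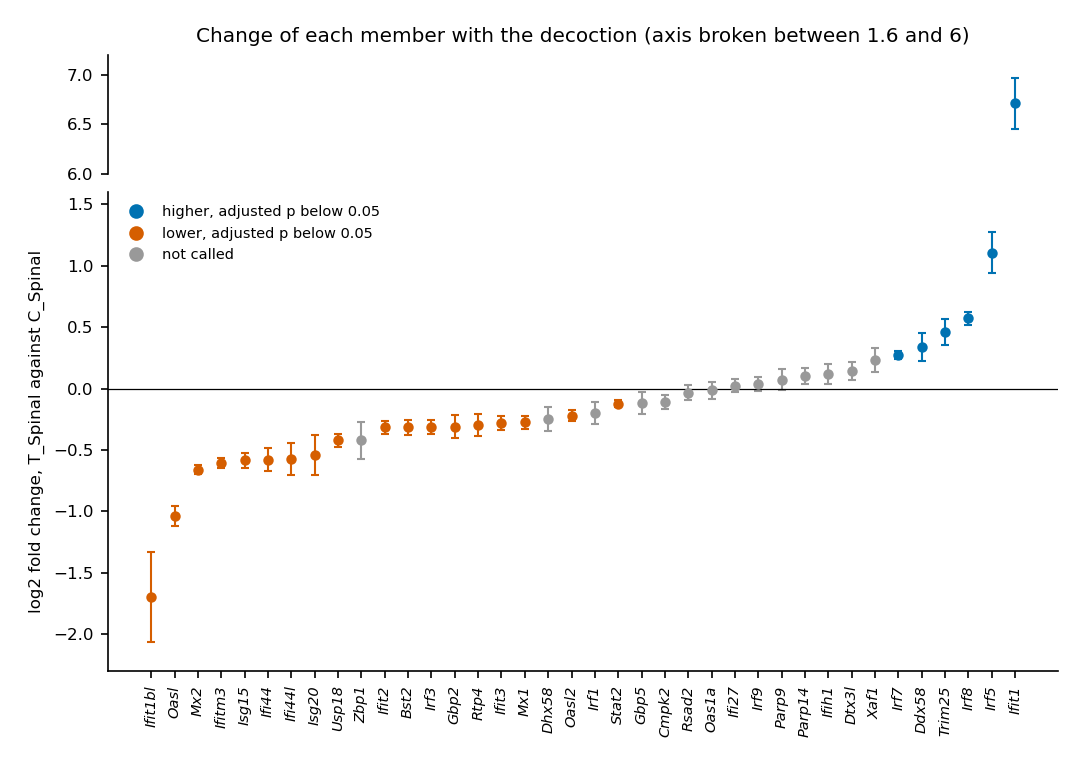
Log2 fold change of each of the 38 members in T_Spinal against C_Spinal from the edgeR fit, in rising order, with bars of 1 SE and a broken axis. Blue points were called higher (6), orange lower (18) and grey not called (14), and Ifit1 stands alone at 6.71.

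Read by role, the direction between the injured groups differed within the group. These counts stand beside 20.7% of all tested genes called higher and 17.9% called lower, and with so few genes a role several are near those shares. Of the 7 transcription factors 3 rose and 2 fell, and of the 4 sensors 1 rose. Of the 4 genes of ISG15 conjugation and ubiquitin 1 rose and 2 fell, and of the 4 IFIT genes 1 rose and 3 fell. The oligoadenylate synthetase family had 2 falls among 3 genes, the large GTPases 3 among 4 and the other effectors 6 among 10 in the edgeR fit. The 6 rises were those of Irf5, Irf7, Irf8, Ddx58, Trim25 and Ifit1. Differences between roles were not tested.

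In T_Spinal against Sham, the comparison of injured cord under decoction with intact cord, 37 of the 38 members rose, 35 of them by at least 2-fold. Over all tested genes 35% rose, and 14.8% by at least 2-fold. Every T_Spinal library was above every Sham library in all 38 members, against 45% of all tested genes. The median log2 fold change of the members was 2.58. The member that was not called by edgeR was Ifit1bl, at 0.81 (SE 0.3696, adjusted p = 0.0722), while DESeq2 (adjusted p = 0.0165) and limma on log2(FPKM + 1) (adjusted p = 0.037) called it higher. The largest rises were Zbp1 at 4.81, Irf7 at 4.41, Mx1 at 4.30, Ifi44l at 3.58 and Oasl at 3.56, and the smallest called one was Irf3 at 0.65. Both groups also enter the other contrasts.

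The interferons themselves were at the limit of this table. Of 14 listed ligand genes, 7 had no count in any library, among them Ifng and Ifna1, and Ifnb1 did not exceed 0.213 FPKM. Only Ebi3, a subunit of interleukin 27, passed the minimum, at 0.819 to 1.39 FPKM in Sham, 3.47 to 4.09 in C_Spinal and 4.41 to 4.92 in T_Spinal, with a rise of 1.61 (SE 0.199, adjusted p = 3.14e-05) in the edgeR fit with injury. A count of 0 in this table does not show that a gene was silent: Cldn5, a claudin of vascular endothelium, also had no count in all 9 libraries. Of 12 genes for receptors, kinases and their direct partners, 11 rose with injury and Jak1 fell by 0.08 on the log2 scale, a call that was lost with no minimum level. The deposited FPKM means of Jak1, 44.5 in Sham and 45.7 in C_Spinal, lie in the other direction. Among all tested genes 38.1% rose with injury. In T_Spinal against C_Spinal 3 of these 12 rose, near the 20.7% of all tested genes: Jak1 by 0.48, Ifngr1 by 0.35 and Ifnar1 by 0.19. Jak1 ran from 44.1 to 44.96 FPKM in Sham, 44.5 to 46.5 in C_Spinal and 63.8 to 66.6 in T_Spinal, with Sham and C_Spinal overlapping.

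Of 14 tested genes of upstream sensing, 10 rose and 2 fell with injury, and 6 rose and 2 fell in T_Spinal against C_Spinal. Over all tested genes 38.1% rose and 37.4% fell with injury, and 20.7% rose and 17.9% fell between the injured groups. The endosomal receptors Tlr7 and Tlr9 were higher in T_Spinal, by 0.60 (SE 0.119, adjusted p = 0.00298) and 1.17 (SE 0.167, adjusted p = 0.000413) in edgeR. Aim2, a sensor of cytosolic DNA, was lower, with 0.368 to 0.592 FPKM in Sham, 5.76 to 7.37 in C_Spinal and 2.95 to 3.42 in T_Spinal (-1.15, SE 0.183, edgeR adjusted p = 0.000824). Sting1, the adaptor of cytosolic DNA sensing, ran from 2.56 to 2.69 FPKM in Sham, 9.72 to 10.1 in C_Spinal and 11.9 to 12.6 in T_Spinal and rose in both contrasts, by 1.80 and 0.26. Of 14 tested negative regulators, 8 rose and 3 fell with injury, and 5 rose and 1 fell in T_Spinal against C_Spinal, beside the same shares of all tested genes. Socs3, which blocks Jak kinases, rose by 3.65 with injury and was level between the injured groups by the test, at 0.01 (SE 0.122, edgeR adjusted p = 0.996). Trex1, which degrades cytosolic DNA, was the regulator that fell in T_Spinal, at -0.34 (SE 0.0766, edgeR adjusted p = 0.00643).

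A second list of interferon-induced genes, none of them a member, was read beside the group. Of 64 listed, 56 were in the table and 50 were tested. With injury 47 rose and the other 3 did not pass the test, with a median log2 fold change of 2.56. Among all tested genes 38.1% rose and 37.4% fell with injury. In T_Spinal against C_Spinal 5 rose, 18 fell and 27 did not pass, with a median of -0.22, beside -0.003 over all tested genes. Among all tested genes 20.7% were called higher and 17.9% lower in that contrast. Ifitm1, a relative of Ifitm3, measured 3.02, 2.96 and 2.01 FPKM in Sham, 718, 706 and 728 in C_Spinal, and 399, 391 and 377 in T_Spinal. It had the largest rise of this list, 7.93 (SE 0.109, edgeR adjusted p = 2.34e-12), and was lower in T_Spinal, at -0.92 (SE 0.0757, edgeR adjusted p = 1.10e-05). Tor3a measured 6.998, 7.15 and 6.296 FPKM in Sham, 19.3, 19.5 and 18.1 in C_Spinal, and 7.51, 8.27 and 7.26 in T_Spinal. Its T_Spinal libraries stood just above Sham and far below C_Spinal. Its change of -1.34 (SE 0.0797, edgeR adjusted p = 1.43e-06) between the injured groups was the largest called fall of the list. The chemokines Cxcl9, Cxcl10 and Cxcl11, which draw T cells, were lower in T_Spinal by edgeR, at -0.70 (SE 0.215, adjusted p = 0.0268), -0.78 (SE 0.111, adjusted p = 0.0004097) and -0.61 (SE 0.184, adjusted p = 0.0249). Oas2 and Gbp6 went the other way. Oas2 measured 0.194, 0.0737 and 0.0516 FPKM in Sham, 3.997, 3.66 and 4.61 in C_Spinal, and 7.38, 9.004 and 8.59 in T_Spinal, and Gbp6 ran from 1.07 to 1.35 FPKM in Sham, 3.97 to 4.57 in C_Spinal and 7.96 to 8.997 in T_Spinal. Both were highest in T_Spinal without overlap, at 0.99 (SE 0.272, adjusted p = 0.0169) and 0.98 (SE 0.119, adjusted p = 0.000147) in edgeR against C_Spinal.

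**Figure D4:**
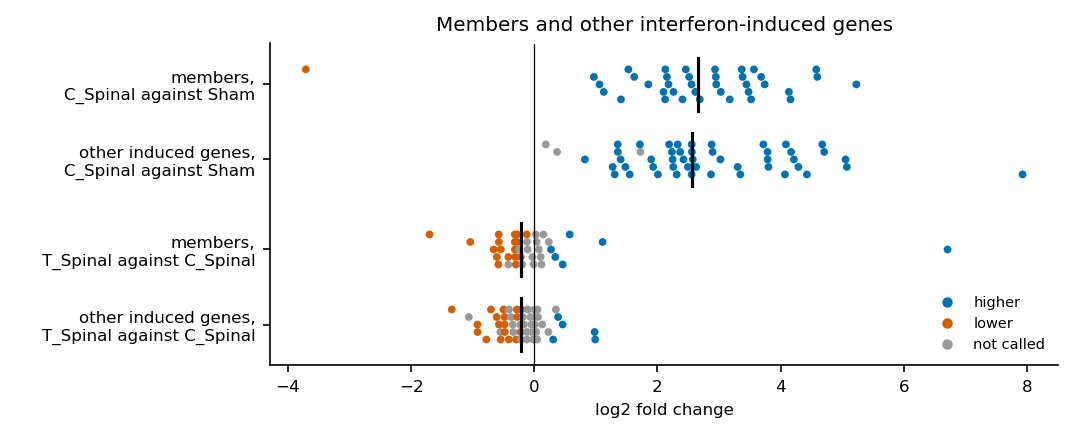
Log2 fold changes from the edgeR fit of the 38 members and of the 50 tested genes of a second list of interferon-induced genes, 1 point per gene, with a black bar at the median and colours for the call. In C_Spinal against Sham the medians are 2.65 and 2.56, and in T_Spinal against C_Spinal -0.21 and -0.22.

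Markers of several cell types also differed between the groups, not all in the direction of the members. Over all tested genes 38.1% were called higher and 37.4% lower with injury, and 20.7% and 17.9% between the injured groups. All 8 markers of monocytes and macrophages that were tested rose with injury (Ccr2 and Ly6c were not analysed here). The Sham libraries summed to 49.9 to 57.1 FPKM over these markers, those of C_Spinal to 4004 to 4098 and those of T_Spinal to 3943 to 4057, so the injured groups overlapped. Homeostatic microglia markers (10 in the table, 9 tested) summed to 217 to 218 FPKM in Sham, 399 to 409 in C_Spinal and 829 to 839 in T_Spinal. With injury 5 of the 9 tested rose, 3 fell and 1 was not called. All 9 rose in T_Spinal against C_Spinal, among them P2ry12 from 17.96 to 23.6 FPKM in Sham, 16.8 to 19.04 in C_Spinal and 47.7 to 52.5 in T_Spinal, and Siglech had no count in any Sham or C_Spinal library. Of the 38 members 6 rose and 18 fell in the same contrast. Markers of T and NK cells (12 in the table, 3 tested) summed to 7.42 to 8.88, 97.2 to 103 and 154 to 157 FPKM, and Gzmb had no count in any library. Of that list Cd4, which rat macrophages and microglia also carry, was the 1 called in T_Spinal against C_Spinal, at 1.81. Neutrophil markers (8 in the table, 4 tested) summed to 3.71 to 4.83, 41.9 to 46.2 and 24.3 to 25.2 FPKM, and Elane had no count in any library. Meningeal fibroblast markers summed to 88.5 to 91.6, 1257 to 1278 and 602 to 611 FPKM, and neuron markers to 825 to 862, 72.02 to 73.9 and 128 to 133 FPKM. Of the 4 tested neutrophil markers 1 rose and 3 fell in T_Spinal against C_Spinal. The part of these marker shifts in the member results was not tested.

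**Figure D5:**
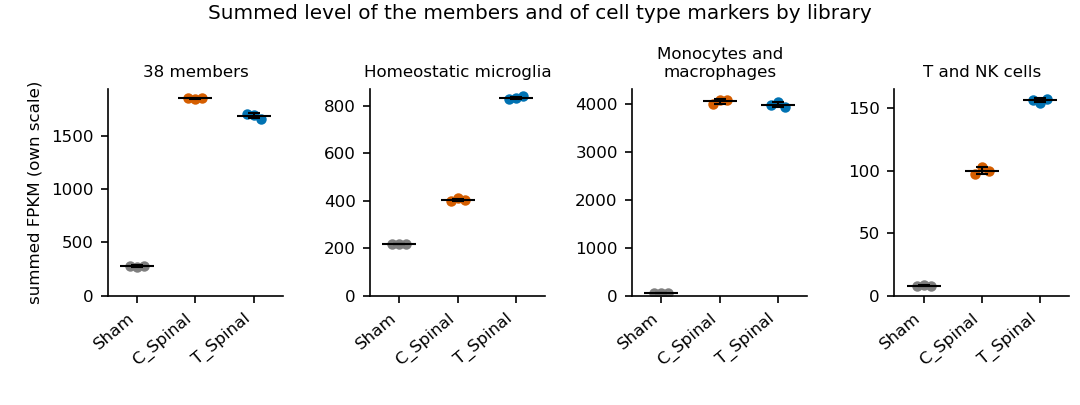
Summed FPKM by library of the 38 members and of the marker lists of homeostatic microglia, monocytes and macrophages, and T and NK cells, each panel on its own scale from 0, with bars for the mean and SD (n = 3). The members sum highest in C_Spinal, the microglia markers in T_Spinal, and the macrophage markers overlap between the injured groups. The sums are of deposited FPKM and were not rescaled to a common total.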

How the data were processed

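Poly(A) RNA from rat spinal cord was read in 9 libraries, 3 in each of 3 groups. The authors deposited whole-number counts per gene and FPKM values for each library in 1 table, and list a count of 0 at a small constant FPKM. HISAT and StringTie were used, per the submitters' processing notes. Versions, genome build, annotation and the use of strand in counting were not given in the sources used here. Depth was 56995589 to 69751015 counts per library, and no 2 libraries were duplicates: the mean chi-square per gene between libraries of a group was at least 20.9.

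The counts were tested with edgeR 4.0.16 (R 4.3.3), a quasi-likelihood fit with TMM scaling over all 9 libraries, on the 14791 genes with a mean of at least 1 FPKM. Adjusted p-values are Benjamini-Hochberg values over those genes, a call is an adjusted p below 0.05, and an SE is the log2 fold change divided by the square root of F. Alternatives were DESeq2 1.42.0, other scalings, other filters, a fit of only the 2 groups compared, a replicate block, each library left out in turn, and limma 3.58.1 on log2(FPKM + 1) or log2(FPKM + 0.1), where a fold change is on that scale. The fits were also run on simulated counts. That run changed few genes and used a smaller spread than edgeR estimated here, so its setting was easier than these data. All 38 members could be named, with full statistics for up to 10 called members a contrast and for those whose direction between the injured groups was opposite to that with injury. The members and lists were chosen with earlier results of these data known. Promoters came from RefSeq (GRCr8) and were matched by symbol or synonym. Tables were joined in Python 3.11.15 with pandas 2.3.3 and numpy 2.4.6, and plots drawn with matplotlib 3.10.9. Results for some genes are not reported here.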

Additional observations from a re-analysis of the deposited data

How the results depend on the processing

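All 38 calls in C_Spinal against Sham, and the 37 in T_Spinal against Sham, held under each of the 19 alternatives. In T_Spinal against C_Spinal 5 of the 6 rises and 11 of the 18 falls held under all 19. Of the 14 uncalled members there, 5 stayed uncalled under all 19 and 9 were called in some alternative. Leaving out 1 library at a time gave 5 to 7 rises and 15 to 20 falls there, 37 rises and 1 fall in C_Spinal against Sham, and 37 to 38 rises in T_Spinal against Sham. With limma on FPKM rescaled to a common sum 12 members rose and 13 fell in T_Spinal against C_Spinal, and the median of all genes moved to 0.10. That scaling divides each library by its summed FPKM, and the cause of the shift was not tested. With total counts in place of TMM that median moved to 0.14 in both contrasts against Sham, and 59.6% of all calls in T_Spinal against Sham were higher, against 48.9%. Members with every group mean of at least 1 FPKM, a limit chosen after seeing the data, gave 0 falls in C_Spinal against Sham, since Ifit1 was left out by it (33 rises, each by edgeR). A limit of 2-fold, also chosen after seeing the data, left 2 rises and 2 falls in T_Spinal against C_Spinal. With both limits 1 rise and 0 falls were left there.

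The 5 uncalled differences in T_Spinal against C_Spinal that changed sign were those of Oas1a, Rsad2, Ifi27, Gbp5 and Cmpk2. Oas1a was 0.0103 with DESeq2 size factors in edgeR, 0.0192 with total counts, 0.0099 with DESeq2, 0.024 and 0.0251 with limma at pseudocounts of 1 and 0.1, 0.1051 at a common sum, and -0.0712 to 0.0379 with 1 library left out, positive without the third library of C_Spinal or of T_Spinal (0.0182). Rsad2 was 0.0002 with total counts, 0.0024 with limma at either pseudocount, 0.0847 at a common sum and -0.0864 to 0.0015 with 1 library left out, positive without T_Spinal library 2. Ifi27 was -0.0095 to 0.0681 with 1 library left out, negative without T_Spinal library 1, and Gbp5 was 0.0027 and Cmpk2 0.0121 at a common sum. The cause was not tested.

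The replicate block changed no count of calls (37 and 1, 6 and 18, 37). Replicate numbers did not pair the libraries: deviations of same-numbered libraries correlated from -0.071 to 0.0693, and those of other numbers from -0.10 to 0.072. No pair of the 9 exceeded 0.1, and in 5 of 18 cases a library correlated best with its own number.

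With 3 libraries a group the fit had 6 residual degrees of freedom, which limits its precision. The lowest counts behind a member were those of Ifit1 in C_Spinal (18 to 42), Ifit1bl in Sham (30 to 91) and Zbp1 in Sham (26 to 43), whose fold changes carry the largest errors. Protein sequences of the IFIT genes were not used here.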
